A study of Arabidopsis thaliana with 12 samples.

Results

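PSBY, RCA and LHCB4.1 are nuclear genes of Arabidopsis thaliana whose products work in the chloroplast. They were picked by name from the supplied probe set annotation, in which each has 1 probe set, so 3 probe sets of 22746 and 3 genes of 13356 are described. The genes were chosen on their log2 signal in the same 12 arrays, and their differences between groups are therefore descriptions, given with their spread and without a test.

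The seeds were Col-0 wild type or pil5, an insertion line (Salk_072677) of PIL5, the basic helix-loop-helix factor also known as PIF1. All seeds were imbibed on aqueous medium and received 5 min of far-red light at 3.2 umol per square metre and second. The red groups then received 5 min of red light at 13 umol per square metre and second, and the dark groups had far-red as their last light. Every group then spent 12 hours in darkness before RNA extraction. The 4 groups, named here pil5 red, pil5 dark, Col-0 red and Col-0 dark, held 3 biological replicates each, numbered 1 to 3, with 1 Affymetrix array per sample.

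Far-red light turns phytochrome into its inactive form and red light turns it back. Active phytochrome leads to the breakdown of PIL5, which otherwise holds back germination in the dark. Plastids of the Arabidopsis embryo are green during seed filling, lose most of their thylakoids as the seed matures, and are rebuilt into chloroplasts in the seedling. PSBY encodes a small thylakoid protein of photosystem II, the complex that oxidises water. RCA encodes Rubisco activase, an ATPase that frees Rubisco of bound sugar phosphates so that it can fix carbon dioxide. LHCB4.1 encodes CP29, a chlorophyll-binding antenna protein that links the main light-harvesting complex to the core of photosystem II.

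The values were log2 signals normalised across arrays, with array medians between 6.08 and 6.28, lower quartiles between 4.202 and 4.36 and upper quartiles between 8.44 and 8.55. Pearson's r between arrays of a group lay between 0.968 and 0.997 over all probe sets. The annotation held 0 probe sets for PIL5 (AT2G20180), so the genotype labels could not be checked on its transcript. Of the 10 genes in the list of seed storage and oil body markers, 0 had a probe set in the annotation, and the labelled tissue was not checked against them. The pil5 groups represent 1 insertion line. The third pil5 red array stood apart: 727 probe sets (3.2%) were at least 1 log2 unit above both other pil5 red arrays, and 575 (2.53%) were at least 1 below. Differences of LHCB4.1 that use this array are given with and without it. Leaving it out moved the differences of PSBY by up to 0.064 and those of RCA by up to 0.028 on the log2 scale.

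PSBY (AT1G67740, probe set 245195_at) was higher after red light in wild-type seeds. Its log2 signals in Col-0 dark were 5.51, 5.28 and 5.93 for replicates 1, 2 and 3. In Col-0 red they were 6.77, 6.53 and 6.87. The lowest Col-0 red value was 0.60 above the highest Col-0 dark value, so these groups did not overlap. In whole seeds, less RNA per cell and fewer cells of a type cannot be told apart. The pil5 dark signals were 6.18, 5.76 and 6.03, and the pil5 red signals were 6.41, 6.23 and 6.13. Both pil5 groups lay below every Col-0 red array, and pil5 red lay above every Col-0 dark array.

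The mean log2 signal of PSBY was 5.57 ± 0.33 (SD, n = 3) in Col-0 dark, 5.99 ± 0.21 in pil5 dark, 6.26 ± 0.14 in pil5 red and 6.72 ± 0.17 in Col-0 red, each over 3 arrays. In this order, Col-0 dark and pil5 dark overlapped, as did pil5 dark and pil5 red, while pil5 red and Col-0 red were separated by 0.12. The fitted log2 difference of PSBY between red and dark in Col-0 was 1.15 (SE 0.17), a 2.22-fold higher signal. Matched by replicate number, it was 1.26, 1.25 and 0.94. In pil5 the log2 difference between red and dark was 0.26 (SE 0.17), from 0.23, 0.47 and 0.10 by number. The difference of these differences was -0.89 (SE 0.24), and it was negative in 3 of 3 numbers, at -1.03, -0.78 and -0.85.

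Between genotypes PSBY went opposite ways under the different last lights. In the dark the pil5 seeds had a log2 signal 0.42 (SE 0.17) above Col-0, or 1.34-fold, with 0.67, 0.48 and 0.10 by number. After red light pil5 was 0.47 (SE 0.17) below Col-0 on the log2 scale, which is 1.38-fold, and the differences of pil5 minus Col-0 were -0.36, -0.30 and -0.74. The pil5 signals of PSBY, from 5.76 to 6.41, lay inside the range of 5.28 to 6.87 that Col-0 spanned.

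RCA (AT2G39730, probe set 245061_at) went the other way in Col-0 seeds, with its highest signals after far-red light. Col-0 dark arrays read 7.79, 7.74 and 7.65 on the log2 scale. Col-0 red arrays read 7.29, 7.23 and 7.27, all below Col-0 dark. The pil5 dark arrays read 6.97, 7.07 and 7.27, and the pil5 red arrays read 7.06, 6.84 and 7.04. Every pil5 array, dark or red, was below every Col-0 dark array. Replicates of RCA lay close together, with a pooled SD within groups of 0.10 against 0.23 for PSBY and 0.43 for LHCB4.1, all in log2 units.

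From high to low, the mean log2 signal of RCA was 7.73 ± 0.07 (SD, n = 3) in Col-0 dark, 7.26 ± 0.03 in Col-0 red, 7.10 ± 0.15 in pil5 dark and 6.98 ± 0.12 in pil5 red, each over 3 arrays. Col-0 red and pil5 dark overlapped, and so did pil5 dark and pil5 red. The log2 difference of RCA between red and dark in Col-0 was -0.46 (SE 0.10), a 1.38-fold lower signal, with -0.50, -0.51 and -0.38 by number. In the dark, pil5 minus Col-0 was -0.62 (SE 0.10), 1.54-fold lower, with -0.82, -0.68 and -0.38 by number. Both differences had the same sign in 3 of 3 numbers, and both are measured against the Col-0 dark arrays.

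With red light in pil5, the log2 difference of RCA was -0.12 (SE 0.10), and its sign varied, at 0.09, -0.23 and -0.23 by number. After red light, pil5 minus Col-0 was -0.28 (SE 0.10), with -0.22, -0.39 and -0.24 by number, and these groups did not overlap. The difference of the red differences was 0.34 (SE 0.14), positive in 3 of 3 numbers, at 0.59, 0.28 and 0.14.

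LHCB4.1 (AT5G01530, probe set 251082_at) was also highest in Col-0 dark, where its log2 signals were 8.20, 8.51 and 7.99. In Col-0 red they were 7.39, 7.47 and 7.05, at least 0.52 below every Col-0 dark array. In pil5 dark they were 7.11, 7.08 and 6.43, at least 0.88 below every Col-0 dark array. The pil5 red arrays read 6.84, 7.19 and 8.18. The third of these was 0.99 above the higher of the other two and fell within the range of Col-0 dark, while the other two fell near the Col-0 red and pil5 dark values.

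The mean log2 signal of LHCB4.1 was 8.23 ± 0.26 (SD, n = 3) in Col-0 dark, 7.40 ± 0.69 in pil5 red, 7.30 ± 0.22 in Col-0 red and 6.87 ± 0.38 in pil5 dark, each over 3 arrays. Of these groups only Col-0 dark stood clear of others, namely of Col-0 red and pil5 dark, and every other pair overlapped. The mean of pil5 red replicates 1 and 2 alone was 7.01. The log2 difference of LHCB4.1 between red and dark in Col-0 was -0.93 (SE 0.31), 1.91-fold lower, with -0.81, -1.04 and -0.94 by number. In the dark, pil5 minus Col-0 was -1.36 (SE 0.31), 2.56-fold lower, with -1.09, -1.43 and -1.56 by number.

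Of the remaining differences of LHCB4.1, those of pil5 red from pil5 dark and from Col-0 red rested on the third pil5 red array. The difference of the red differences was smaller without that array and kept its sign. Red minus dark in pil5 was 0.53 (SE 0.31), from -0.27, 0.11 and 1.74 by number, and 0.14 (SE 0.23) without that array. After red light, pil5 minus Col-0 was 0.10 (SE 0.31), from -0.55, -0.28 and 1.13, and -0.29 (SE 0.23) without it, so the sign turned. The difference of the red differences was 1.46 (SE 0.44), from 0.54, 1.15 and 2.68, and 1.07 (SE 0.31) without it. Its sign was positive in 3 of 3 numbers.

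**Figure D1:**
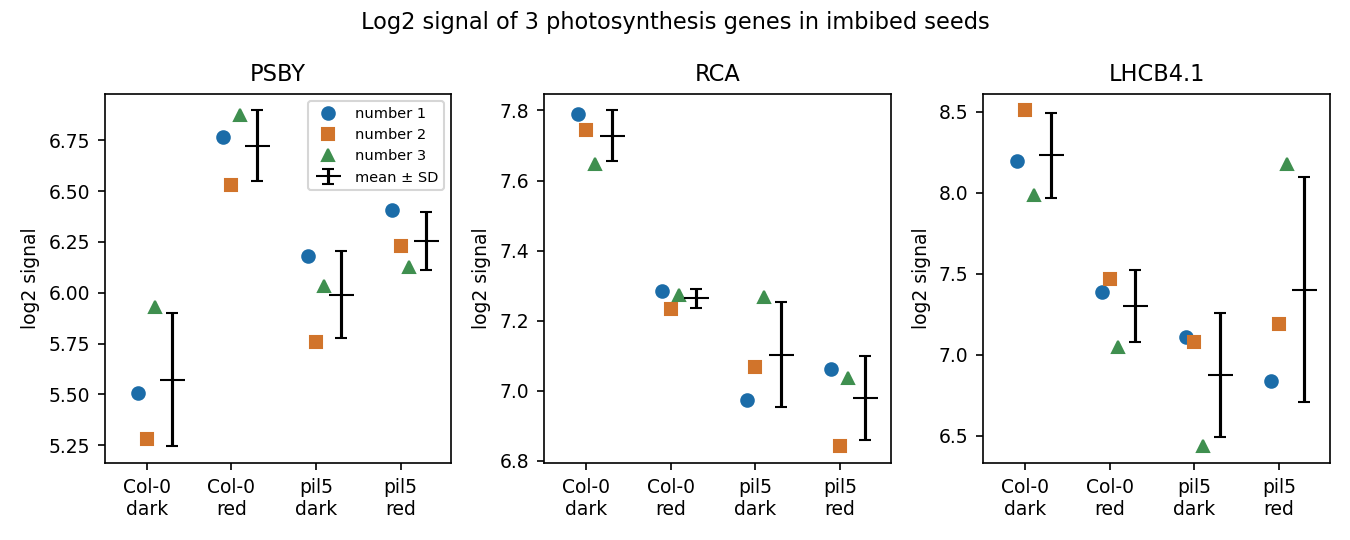
Log2 signal (vertical axis, a separate range in each panel) of PSBY, RCA and LHCB4.1 in the 4 groups of genotype and last light. Symbols are single arrays by replicate number, and bars are the mean ± SD over 3 arrays. PSBY is highest in Col-0 red, RCA and LHCB4.1 are highest in Col-0 dark, and LHCB4.1 in the third pil5 red array is at 8.18.

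In all 3 genes the Col-0 groups lay apart and the pil5 groups overlapped, with PSBY higher after red light in Col-0 and RCA and LHCB4.1 lower. For red against dark in Col-0, the groups did not overlap for 3 of 3 genes, where 33.3% of all probe sets did the same. For pil5 against Col-0 in the dark this held for 2 of 3 genes, all but PSBY, with 29.5% of all probe sets. For pil5 against Col-0 after red it held for PSBY and RCA, with 16.7% of all probe sets, and for red against dark in pil5 it held for 0 of 3 genes, with 4.46% of all probe sets. Because the genes were chosen on these values, nothing is read from these shares. Since Col-0 dark enters both of the first comparisons, and each other group likewise enters 2 comparisons, the differences of a gene share arrays and are not separate evidence.

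**Figure D2:**
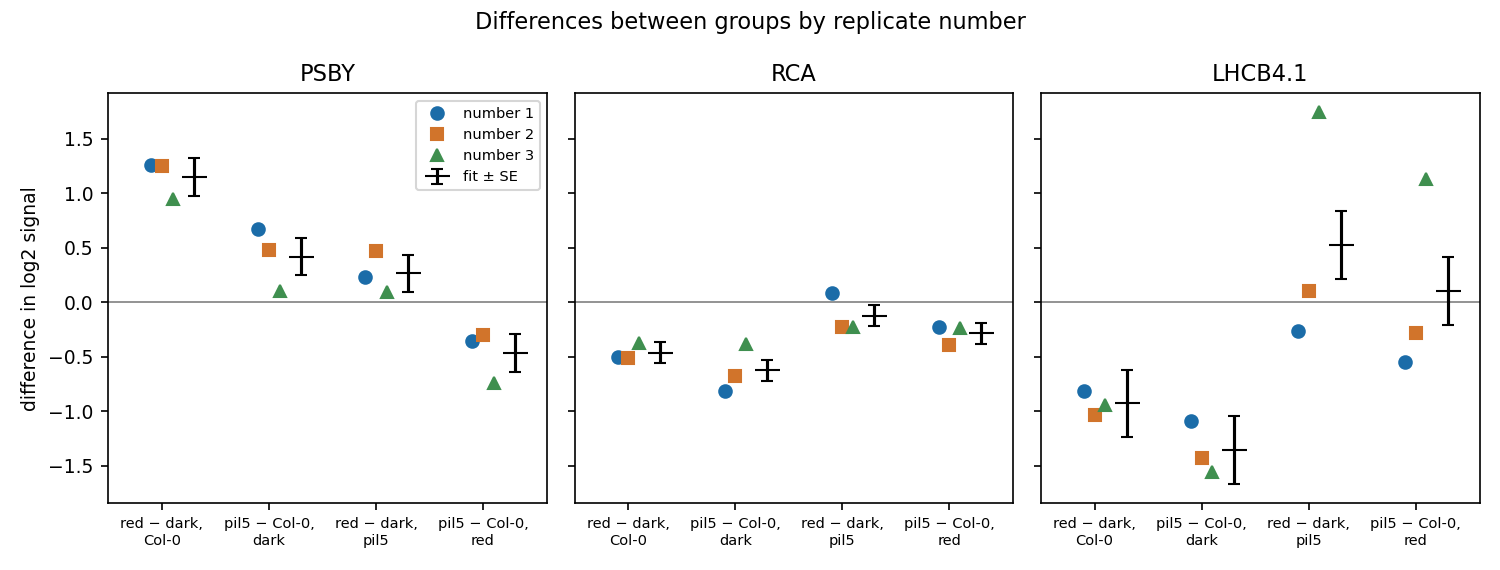
Differences in log2 signal (vertical axis) for 4 comparisons of PSBY, RCA and LHCB4.1. Symbols are differences between arrays of the same replicate number, and bars are the fitted difference ± SE over all 12 arrays. In Col-0, red minus dark is 1.15 for PSBY, -0.46 for RCA and -0.93 for LHCB4.1, and in pil5 only LHCB4.1 in replicate 3 exceeds 1.

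Across the 12 arrays, Pearson's r of the log2 signals was 0.62 between RCA and LHCB4.1, -0.52 between PSBY and RCA and -0.54 between PSBY and LHCB4.1. Without the third pil5 red array, over 11 arrays, these became 0.78, -0.54 and -0.57. The arrays share the group differences on which the genes were chosen, so these values describe the pattern only.

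LHCB4.1 has a pair of close paralogs on the array, LHCB4.2 (AT3G08940) and LHCB4.3 (AT2G40100), which encode other forms of CP29. Near-identical sequence can let a probe set read more than 1 of them, and this was not tested here. LHCB4.3 fell after red light in Col-0, by 0.61 on the log2 scale (SE 0.16, limma adjusted p = 0.031). Its signals in Col-0 red were 7.60, 7.47 and 7.12, below those of 8.16, 8.12 and 7.74 in Col-0 dark, without overlap. In pil5 dark they were 7.74, 7.84 and 7.39, and in pil5 red 7.66, 7.80 and 7.56, so the third pil5 red array was not high for this gene. The difference of pil5 from Col-0 in the dark was -0.35 for LHCB4.3 (SE 0.16, limma adjusted p = 0.22), and with the replicate block adjusted p = 0.017.

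LHCB4.2 resembled LHCB4.1 in the array that stood apart. Its Col-0 dark arrays read 5.21, 5.46 and 5.49 on the log2 scale. The Col-0 red arrays read 4.64, 4.54 and 4.78, and the pil5 dark arrays 4.71, 4.68 and 4.34. In pil5 red they were 4.69, 4.61 and 6.71, the last above every other array. Col-0 dark did not overlap Col-0 red or pil5 dark, where the signals were near the lower quartile of the arrays. The limma fit did not call either difference of LHCB4.2, with -0.73 for red in Col-0 (SE 0.44, adjusted p = 0.34), and -0.81 between the genotypes in the dark (SE 0.44, adjusted p = 0.30). Without the third pil5 red array, limma's adjusted p for LHCB4.2 was 0.0021 and 0.0018 for these differences.

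**Figure D3:**
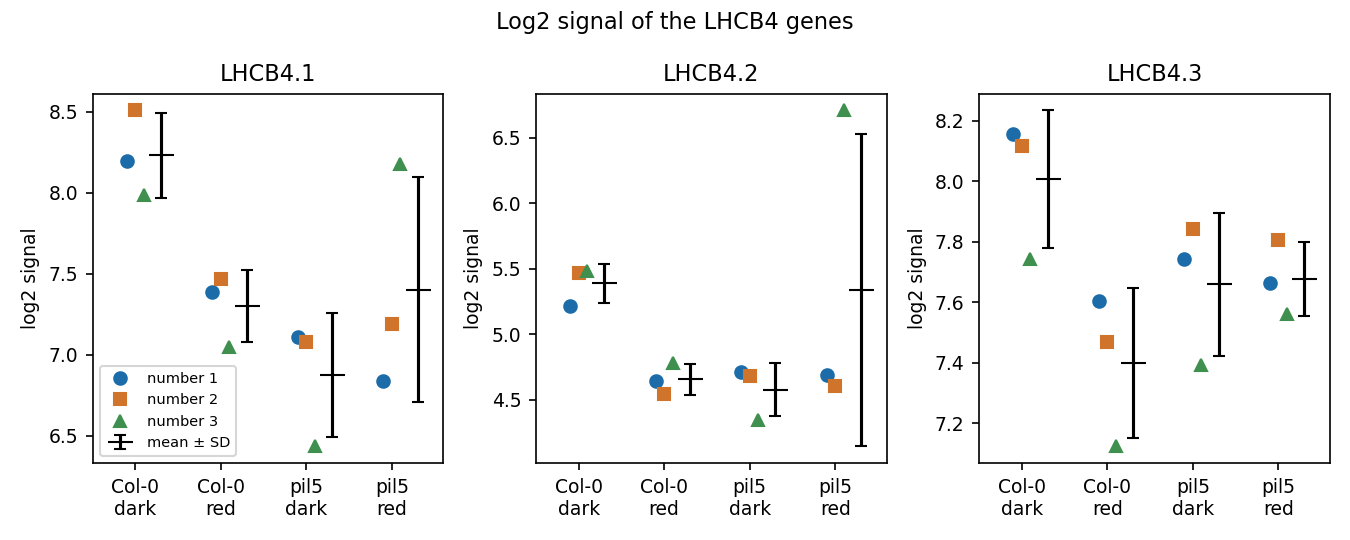
Log2 signal (vertical axis, a separate range in each panel) of LHCB4.1, LHCB4.2 and LHCB4.3 in the 4 groups. Symbols are single arrays by replicate number, and bars are the mean ± SD over 3 arrays. In the third pil5 red array LHCB4.1 is at 8.18 and LHCB4.2 at 6.71, both above the other pil5 red arrays, while LHCB4.3 is at 7.56.

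The genes around these 3 in photosynthesis were followed in 5 lists covering light harvesting, photosystem II, photosystem I, electron transport with ATP synthase, and carbon fixation. Of 86 entries in these lists 16 had a probe set in the annotation, 13 besides the 3 genes, and the other 70 were not analysed here. For red against dark in Col-0, limma called 1 of the 13 genes higher and 2 lower, while 10 did not pass. Over all probe sets, 7.81% were called higher and 7.33% lower. The median log2 difference of the 13 genes was -0.23, against 0.00029 over all probe sets, and the median absolute difference was 0.51 against 0.15. All probe sets include dim ones and those without a gene in the annotation, and no set matched for signal was compared.

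In the photosystem II list, PSB27, a lumenal factor in the assembly and repair of the complex, fell after red light in Col-0. Its log2 signals were 10.26, 10.21 and 10.12 in Col-0 red, below those of 10.87, 10.85 and 10.73 in Col-0 dark. The difference for PSB27 was -0.62 (SE 0.15, limma adjusted p = 0.017). PSBW, a small nuclear-encoded subunit, differed by -0.22 (SE 0.17, limma adjusted p = 0.51). PSBY, on the same list, had a difference of 1.15, opposite in sign to these. AT2G26500, named PETM in the electron transport list and without a symbol in the annotation, rose by 0.996 (SE 0.30, limma adjusted p = 0.049). Its log2 signals were 9.56, 9.50 and 9.67 in Col-0 red, above those of 8.25, 8.46 and 9.03 in Col-0 dark.

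In photosystem I, PSAE-1, a stromal-side subunit, had log2 signals of 5.82, 5.62 and 5.89 in Col-0 red, all above the 5.03, 5.16 and 5.58 of Col-0 dark. Its difference of 0.52 (SE 0.17) did not pass in limma (adjusted p = 0.066). For PSAN, a lumenal subunit, the difference was 0.01 (SE 0.08, limma adjusted p = 0.96). The gamma subunits of the chloroplast ATP synthase differed in sign, with 0.59 for ATPC1 (SE 0.26, limma adjusted p = 0.17) and -0.36 for ATPC2 (SE 0.13, limma adjusted p = 0.083). With the replicate block, ATPC2 passed (adjusted p = 0.0099). AT1G56190, named PGK2 in the carbon fixation list, passed too, at -0.51 (adjusted p = 0.023, against 0.068 without the block). This made 5 calls in place of 3. Over all probe sets, 26.4% were called with the block.

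The number of calls for red in Col-0 depended on single arrays. Over all 22746 probe sets, leaving out each array gave 1587 to 4668. Among the 13 genes it was 0 without Col-0 dark replicate 1, Col-0 dark replicate 2 or Col-0 red replicate 3. Without Col-0 red replicate 2 it was 1. Without the third pil5 red array it was 8, the added ones being LHCB4.2, PSAE-1, AT1G56190, ATPC2 and PGRL1B, the last a protein of cyclic electron flow. Limma's adjusted p without an array reached 0.069 for PSB27 and 0.12 for LHCB4.3, and the call of AT2G26500 was lost without any 1 of 9 arrays.

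For pil5 against Col-0 in the dark, 4 of the 13 genes fell and 0 rose in limma, and 9 did not pass. Over all probe sets 6.01% were called lower and 6.08% higher. The median log2 difference of the 13 genes was -0.41, against 0.012 over all probe sets. PSB27 fell by 0.84 (SE 0.15, limma adjusted p = 0.0071), with pil5 dark signals of 10.15, 10.18 and 9.60. AT1G56190 fell by 1.13 (SE 0.17, limma adjusted p = 0.0045), from 9.29, 9.16 and 9.25 in Col-0 dark to 8.07, 8.15 and 8.08 in pil5 dark. These 2 calls held without any single array.

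SBPASE, sedoheptulose bisphosphatase of the Calvin cycle that Rubisco feeds, fell by 0.60 in pil5 dark (SE 0.14, limma adjusted p = 0.022). Its log2 signals were 5.74, 5.36 and 5.29 in Col-0 dark and 4.97, 4.94 and 4.69 in pil5 dark. ATPC2 fell by 0.47 (SE 0.13, limma adjusted p = 0.036). PRK, phosphoribulokinase of the same cycle, differed by -0.03 (SE 0.14, limma adjusted p = 0.94). Without an array, limma's adjusted p reached 0.083 for SBPASE and 0.14 for ATPC2, and the call of ATPC2 was lost without any 1 of 7 arrays. The count of calls was 2 without Col-0 dark replicate 1, without Col-0 dark replicate 2 or without pil5 dark replicate 3. Over all 22746 probe sets, leaving out each array gave 769 to 3965.

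Red light in pil5 gave 0 calls among the 13 genes in limma, 0 at an unadjusted p under 0.05 and 0 with the replicate block. Over all 22746 probe sets it also gave 0 calls (0%), with 267 (1.17%) at an unadjusted p under 0.05. For pil5 against Col-0 after red, 0 of the 13 genes passed in limma, and 0.193% of all probe sets were called. At an unadjusted p under 0.05 there were 4 of the 13 genes and 12.0% of all probe sets. With the replicate block 1 gene passed, SBPASE, at -0.36 (adjusted p = 0.035, against 0.35 without the block), where 8.27% of all probe sets passed.

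For the interaction of genotype and red light, 0 of the 13 genes passed in limma, and 6.34% of all probe sets were called. At an unadjusted p under 0.05 there were 8 of the 13 genes and 21.2% of all probe sets. With the replicate block 3 of the 13 genes passed, all positive, where 17.5% of all probe sets passed in either direction. They were PSB27 at 0.65 (adjusted p = 0.018, against 0.089), AT1G56190 at 0.70 (adjusted p = 0.039, against 0.11) and LHCB4.3 at 0.62 (adjusted p = 0.011, against 0.14).

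**Figure D4:**
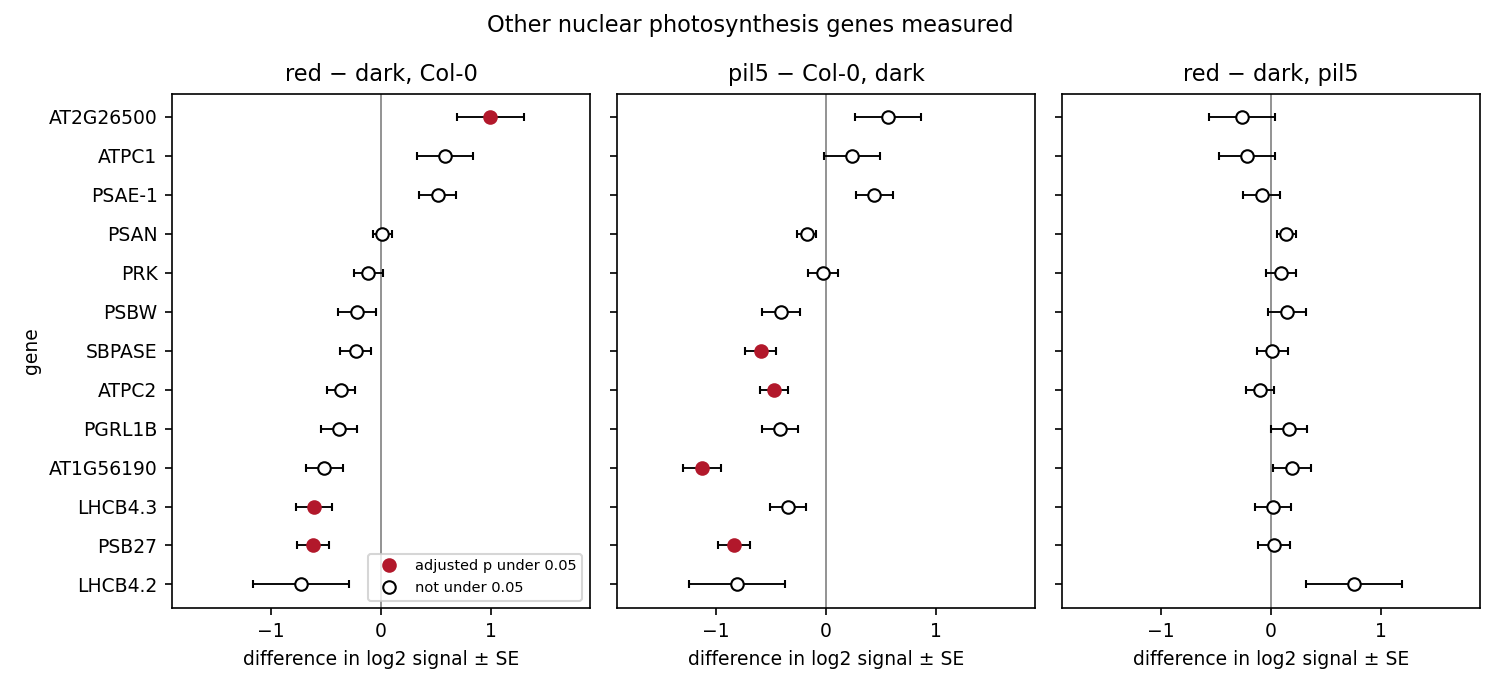
Differences in log2 signal (horizontal axis) ± SE for the 13 other nuclear photosynthesis genes with a probe set in the annotation, in 3 comparisons. Filled points have a limma adjusted p under 0.05. In Col-0, 1 gene is filled on the higher side and 2 on the lower side, in pil5 dark 4 genes are filled on the lower side, and in the right panel none is.

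Of the genes that make chlorophyll, the pigment that CP29 binds, 8 had a probe set in the annotation. They gave 0 calls in limma in each of the 5 comparisons. At an unadjusted p under 0.05 there were 2 for the red response of Col-0, 1 between genotypes in the dark, 3 after red and 0 for red in pil5 and the interaction. Over all probe sets that p was reached by 26.7% for red in Col-0, 24.8% between genotypes in the dark and 12.0% after red. It was reached by 1.17% for red in pil5 and 21.2% for the interaction. Called over all probe sets were 7.81% higher and 7.33% lower for red in Col-0, and 6.08% higher and 6.01% lower for pil5 in the dark. For red in pil5, pil5 after red and the interaction the called shares were 0%, 0.193% and 6.34%. CHLI2, a subunit of magnesium chelatase, differed by 0.85 between red and dark in Col-0 (limma adjusted p = 0.069, with the replicate block 0.012). After red light, pil5 minus Col-0 was -1.11 for CHLI2 (limma adjusted p = 0.14, with the block 0.011) and -0.64 for CHLM (0.29, with the block 0.030), the methyltransferase of the following step. The difference of CHLM was -0.36 without the third pil5 red array (limma adjusted p = 0.62). GSA1, which makes aminolevulinate, differed by -0.48 in pil5 dark (limma adjusted p = 0.092, with the block 0.024). Of the 8 genes, the block passed 1 for red in Col-0, 1 for pil5 in the dark and 2 for pil5 after red. It passed 0 for red in pil5 and 0 for the interaction. The block shares over all probe sets were 26.4% for red in Col-0, 23.8% for pil5 in the dark and 8.27% for pil5 after red. They were 0% for red in pil5 and 17.5% for the interaction.

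Among genes that assemble photosystems, HCF101, an iron-sulfur cluster carrier for photosystem I, rose by 0.43 after red light in Col-0 (SE 0.11, limma adjusted p = 0.022). The call was lost without Col-0 dark replicate 2, Col-0 red replicate 1 or Col-0 red replicate 2, with adjusted p up to 0.099. LPA1, a photosystem II assembly factor, differed by 0.13 (SE 0.11, limma adjusted p = 0.56). HYH, a close relative of the light-response factor HY5, was the only one of 21 listed regulators with a probe set in the annotation. Its difference was 0.86 in pil5 dark (SE 0.48, limma adjusted p = 0.32, with the replicate block 0.012) and 0.79 after red (adjusted p = 0.55, with the block 0.039). The Col-0 dark signals of HYH were 4.17, 4.54 and 5.26, with replicates 1 and 2 near the lower quartile of the arrays. Replicate 3 was its highest value in every group.

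From the seed coat list, BAN and DFR, enzymes of flavonoid synthesis, had a probe set in the annotation. In limma 0 of these 2 passed in any of the 5 comparisons, with 0 at an unadjusted p under 0.05 and 0 with the replicate block. Red minus dark in Col-0 was 0.03 for BAN and 0.05 for DFR, and pil5 minus Col-0 after far-red was 0.17 and 0.05. Both probe sets had group means between 4.28 and 4.59, near the lower quartile of the arrays. The endosperm list had 0 of 2 genes with a probe set in the annotation. The part of these tissues in the results was not tested.

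Plastid-encoded partners were looked up after the nuclear values had been seen. For 15 plastid psb genes of photosystem II, limma gave 0 calls in all 5 comparisons. Their SDs within groups were as large as 1.33 (psbH in pil5 red), so 0 calls does not show that they were unchanged. At an unadjusted p under 0.05 there was 1 for pil5 in the dark, against 0 in each other comparison. The shares of all probe sets called and at that p are those given for the chlorophyll genes. With the replicate block it gave 4 calls of 15 for pil5 in the dark, 2 for pil5 after red and 1 for the interaction. The shares of all probe sets with the block were 23.8%, 8.27% and 17.5%. Their median log2 difference was -0.07 between red and dark in Col-0, and -0.23 between the genotypes in the dark. The median of the 15 genes ranged over arrays from 7.12 to 8.73 and was lowest in replicate 3 of every group, at 7.62, 7.59, 7.48 and 7.12. For rbcL, which encodes the large subunit of the Rubisco that RCA serves, red minus dark in Col-0 was 0.12, and pil5 minus Col-0 in the dark was 0.17 (SE 0.32).

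Among 1549 genes with a symbol, those whose log2 signal followed each gene most closely over the 12 arrays were named by Pearson's r. For PSBY they were YAB3, a YABBY transcription factor (r = 0.93), XTH16, a cell wall xyloglucan enzyme (0.91), and LIL3:1, a light-harvesting-like protein of chlorophyll synthesis (0.90). LIL3:1 had a mean log2 signal of 8.07 ± 0.38 (SD, n = 3) in Col-0 dark, 9.04 ± 0.13 in Col-0 red, 8.41 ± 0.26 in pil5 dark and 8.47 ± 0.31 in pil5 red. The lowest r with PSBY was that of ISU1, a scaffold for iron-sulfur clusters (-0.95). When the third pil5 red array was left out, YAB3 and XTH16 were still highest and ISU1 lowest, and LIL3:1 had rank 6.

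For RCA the closest genes were NOL, a chlorophyll b reductase (r = 0.93), HL (0.89) and IAA30, of the Aux/IAA family (0.89). NOL had a mean log2 signal of 8.14 ± 0.15 (SD, n = 3) in Col-0 dark, 7.59 ± 0.11 in Col-0 red, 7.46 ± 0.05 in pil5 dark and 7.26 ± 0.13 in pil5 red, the same order of groups as RCA. The lowest r over the 12 arrays was that of UBP24, a ubiquitin-specific protease (-0.91). Over the 11 arrays without the third pil5 red array, r was 0.94 for NOL, 0.91 for HL, 0.88 for IAA30 and -0.91 for UBP24. Their ranks from the highest r were then 1, 4, 11 and 1540 of 1549, so UBP24 was not the lowest.

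For LHCB4.1 the closest were EEL, a bZIP factor of late embryo development (r = 0.98), MCCA, a subunit of methylcrotonyl-CoA carboxylase in leucine breakdown (0.98), and RBP45B, an RNA-binding protein (0.97). The log2 signals of EEL in Col-0 dark were 8.85, 8.72 and 7.98. Those of Col-0 red were 6.78, 6.94 and 6.68, and those of pil5 dark were 6.57, 6.35 and 5.51. In pil5 red it read 6.03, 6.59 and 8.29, so the third array was high here too. SDH2-2, an iron-sulfur subunit of succinate dehydrogenase, had the lowest r over the 12 arrays (-0.90). Without the third pil5 red array r was 0.98 for EEL, 0.99 for MCCA, 0.96 for RBP45B and -0.89 for SDH2-2. Their ranks from the highest r were then 2, 1, 10 and 1514 of 1549, so SDH2-2 was not the lowest.

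Of the 6 genes next to the 3 on their chromosomes, 2 had a probe set in the annotation. AT1G67750, next to PSBY, rose by 1.04 after red light in Col-0 (SE 0.12, limma adjusted p = 0.0011), close to the 1.15 of PSBY. Its difference for pil5 in the dark was -0.02 (limma adjusted p = 0.95), and after red pil5 minus Col-0 was -0.99 (limma adjusted p = 0.013). For PSBY these differences were 0.42 in the dark and -0.47 after red. The interaction for AT1G67750 was -0.97 (SE 0.17, limma adjusted p = 0.019), against -0.89 for PSBY. The AT1G67750 call for red in Col-0 held without any single array (adjusted p up to 0.0085). The call after red was lost without Col-0 red replicate 1 or pil5 red replicate 2 (up to 0.097), and the interaction without Col-0 red replicate 1 or Col-0 dark replicate 2 (up to 0.061). AT2G39725, next to RCA, differed by -0.08 between red and dark in Col-0 (limma adjusted p = 0.77) and by -0.18 between the genotypes in the dark (limma adjusted p = 0.41). Over all probe sets, 7.81% were called higher for red in Col-0, 0.193% were called for pil5 after red and 6.34% for the interaction.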

How the data were processed

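The deposited table holds log2 values that the authors had normalised across arrays, judged by quantiles that were nearly the same from array to array. MAS5 5.0 and RMA are listed in the submitters' processing notes, without the role of each. Values were used as deposited, after 64 control probe sets were set aside, with no filter on dim probe sets. Probe sets were named by the supplied annotation, in which 13513 had 1 gene, 503 several and 8730 none, and 13436 matched RefSeq. A gene counts as measured here only if the annotation gives it a probe set of 1 gene. Other listed genes may have probe sets that the annotation does not name. The members and lists were chosen with earlier results of these data known. The genes named were the 3 members, measured genes of the light harvesting and photosystem II lists, called genes (or the one with the largest difference) of the other lists, and the 3 highest and 1 lowest in correlation with each member. Other genes in these lists and the neighbours were named after their values were seen.

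Group means were fitted over all 12 arrays in R 4.3.3 by limma 3.58.1, followed by eBayes, two-sided tests and Benjamini-Hochberg adjustment over 22746 probe sets at a threshold of 0.05. Fitting was tested on simulated data. "Called" means past that threshold. Folds are 2 to the power of the log2 difference. The number of arrays limits the precision.

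The titles number the biological replicates in each group and do not say what equal numbers share. The replicate block treats equal numbers as paired, and the main fit, which defines the calls, does not. Deviations from group means correlated between 0.17 and 0.71 in all 18 same-number pairs of arrays, and between -0.68 and 0.41 in 36 other pairs. Deviations cancel within each group, which by itself lowers r in the other pairs when same-number arrays go together. With the replicate block, the probe sets called for red in Col-0 were 6009 in place of 3443. Alternatives were the block, the compared arrays alone, other scalings, a filter on dim probe sets, trended and robust eBayes, and leaving out each array. Fits with a pseudocount were not needed on the log2 scale.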

Additional observations from a re-analysis of the deposited data

Results flagged for a closer look

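For 2 of the other photosynthesis genes, the difference between red and dark had one sign in all 3 replicate numbers of Col-0 and the opposite sign in all 3 of pil5. ATPC1 had differences of 0.84, 0.68 and 0.25 in Col-0 and -0.13, -0.04 and -0.49 in pil5, with an interaction of -0.81 (limma adjusted p = 0.23, with the replicate block 0.15). PRK had differences of -0.09, -0.16 and -0.09 in Col-0 and 0.01, 0.18 and 0.08 in pil5, with an interaction of 0.20 (limma adjusted p = 0.64, with the block 0.20). Neither interaction passed the test. The share of all probe sets with this sign pattern was not counted, so nothing is read from the number of genes that show it. Without the third pil5 red array they were -0.51 for ATPC1 (limma adjusted p = 0.38) and 0.13 for PRK (limma adjusted p = 0.84).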

How the results depend on the processing

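All 210 values of PSBY, RCA and LHCB4.1 under alternatives moved by less than 1 within-group SD. Most of these alternatives left out 1 array, and a difference cannot move when an array it does not use is left out. Small moves were therefore partly fixed in advance, and robustness is not read from this count. For LHCB4.1 that SD of 0.43 includes the third pil5 red array. Without this array the SD is 0.29, and values moved by up to 0.39 when it was left out, the sign turn after red among them. With the replicate block, probe sets called numbered 6009 for red in Col-0 (3443 without it), 5406 for pil5 in the dark (2750), 1880 for pil5 after red (44) and 3973 for the interaction (1443). For pil5 after red the count was 0 from the compared arrays alone and 72 with median centring. Leaving out each array gave 1587 to 4668 probe sets for red in Col-0, 769 to 3965 for pil5 in the dark, 3 to 112 for pil5 after red and 68 to 2104 for the interaction. Among the 13 other photosynthesis genes, calls numbered 5 for red in Col-0 with the replicate block or from the compared arrays alone, 1 with the block for pil5 after red, and 3 with the block or 1 with median centring for the interaction. Leaving out each array gave 0 to 8 for red in Col-0, 2 to 6 for pil5 in the dark and 0 to 1 for the interaction. The causes were not tested. PSAN, PRK, BAN, DFR and PORB had signals near the lower quartile of the arrays, and signal over background was not measured for them. The same holds for LHCB4.2 in Col-0 red and pil5 dark, for HYH in Col-0 dark replicates 1 and 2, and for IAA30 in all groups but Col-0 dark.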
